A study of Mus musculus with 22 samples.

Results

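The complement genes described here are the 9 rows of the count table whose gene symbol is C1qa, C1qb, C1qc, C1ra, C2, C3, C4b, Cfb or Cfi, out of 46078 genes in all. They were taken by symbol alone and each symbol matched 1 row. RNA sequencing of the distal colon was available for 22 mice. The groups were 8 C57BL/6 control mice (4 males and 4 females, aged 14 weeks), 7 Winnie mice (3 males and 4 females, aged 14 weeks), labelled as inflamed, and 7 Winnie mice with rectal prolapse (4 males and 3 females, aged 18 weeks), labelled as severely inflamed and called Winnie-Prolapse below. Winnie mice carry a point mutation in Muc2, the gene of the main secreted mucin of the colon, and develop colitis with no inducing agent. The labels name no drug or inducing agent for any group. All Winnie-Prolapse mice were older than the mice of both other groups, so prolapse and age cannot be told apart. The comparisons ask how the genes differ in colitis without and with prolapse.

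Complement is a cascade of plasma and tissue proteins that marks microbes and damaged cells for removal and releases peptides that attract leukocytes. In the classical pathway the C1q recognition molecule, built of A, B and C chains, activates the proteases C1r and C1s, which cleave C4 and C2 to form an enzyme that cuts C3. In the alternative pathway C3b binds factor B to form a second C3-cutting enzyme, and factor I inactivates C3b and C4b. Most circulating complement comes from the liver, whereas C1q is made largely by macrophages and related myeloid cells, and gut epithelium, stroma and leukocytes also transcribe complement genes.

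On GRCm38 (GENCODE M21), the 3 C1q chains form a cluster on the minus strand of chromosome 4, with C1qb (ENSMUSG00000036905) at chr4:136880129-136886187, C1qc (ENSMUSG00000036896) at chr4:136889804-136893065 and C1qa (ENSMUSG00000036887) at chr4:136895917-136898803. C1ra (ENSMUSG00000055172) is at chr6:124512405-124523443 on the plus strand and Cfi (ENSMUSG00000058952) at chr3:129835884-129875332 on the plus strand. The other 4 lie on the minus strand of chromosome 17, with C4b (ENSMUSG00000073418) at chr17:34728380-34743882, Cfb (ENSMUSG00000090231) at chr17:34856374-34862518, C2 (ENSMUSG00000024371) directly next to it at chr17:34862604-34898265 and C3 (ENSMUSG00000024164) at chr17:57203970-57228136. All 9 are annotated as protein-coding in GENCODE, while the deposited table lists C2 as a processed transcript. A further gene model on the same strand, Gm20547, shares 79.5% of the 2825 exonic bases of Cfb and 42.8% of the 3872 exonic bases of C2. Gm20547 itself received 2 counts over all libraries. How reads shared between genes were counted is not given in the sources used here, so the levels of Cfb and C2 may cover part of each gene only. The near-copies C4a and C1rb received 576 and 81 counts over all libraries, and reads that fit both copies of a pair cannot be told apart.

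Sequence upstream of the start was available from RefSeq (GRCm38.p6) for 4 of the 9 genes. The stretches of C1qb and C1qc are shown because the levels of these neighbouring genes followed each other across the libraries, and that of C3 because its level did not follow theirs. Each stretch runs 5′ to 3′ on the strand of the gene and lies before the start of the GENCODE gene model. Only 34 bases of the C1ra window did so, and it is not shown. Capitals mark matches to any of 5 short motifs searched on both strands: GAS (TTCNNNGAA), ISRE core (GAAANNGAA), kappaB-like (GGANTTTCC), PU.1 core (GAGGAAG) and C/EBP-like (TTNNGCAA).
C1qb, chr4:136886201-136886450: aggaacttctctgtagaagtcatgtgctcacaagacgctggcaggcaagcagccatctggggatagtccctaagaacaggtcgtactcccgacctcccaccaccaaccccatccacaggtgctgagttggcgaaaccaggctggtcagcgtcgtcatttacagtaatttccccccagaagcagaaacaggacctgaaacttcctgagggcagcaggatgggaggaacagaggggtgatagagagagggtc
C1qc, chr4:136893066-136893164: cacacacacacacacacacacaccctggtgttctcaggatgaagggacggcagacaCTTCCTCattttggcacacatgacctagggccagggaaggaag
C3, chr17:57228137-57228386: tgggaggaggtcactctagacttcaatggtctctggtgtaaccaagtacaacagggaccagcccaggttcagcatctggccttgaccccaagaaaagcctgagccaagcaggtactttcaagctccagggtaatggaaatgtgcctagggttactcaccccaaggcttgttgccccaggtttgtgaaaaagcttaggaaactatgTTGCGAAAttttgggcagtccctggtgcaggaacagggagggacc

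The C1qc stretch held 1 match to the PU.1 core, on the other strand, and the C3 stretch held 1 match to the C/EBP-like letters, also on the other strand. PU.1 is a transcription factor of myeloid cells and C/EBP factors act in the acute-phase response. No match to the 5 motifs lay in the C1qb stretch, which says only that these letters are not in that window. Among 32851 RefSeq windows of 300 bases, 13.6% held the PU.1 core, 10.8% the C/EBP-like letters, 8.3% GAS, 8.56% the ISRE core and 1.25% the kappaB-like letters.

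Library totals ran from 24.8 M to 36.3 M counts. Levels are given in CPM, the counts of a gene for each 1 M counts of its library, and a gene with no count in a library lies below 0.0825 to 0.121 CPM, the level of 3 counts, which covers counting error only. The colon labels fitted the markers, with Lgals4, a lectin of gut epithelium, between 2919 and 6140 CPM in every library. Of the hepatocyte markers, Ttr, which other tissues make too, reached 63.4 CPM and Alb 4.12 CPM, while Fgb had 4 counts and Serpina1a 9 over all libraries. In Winnie-Prolapse replicate 6, 6 milk-protein genes summed to 179624 CPM, against 54.2 CPM in Winnie-Prolapse replicate 5 and at most 5.49 CPM in the C57BL/6 and Winnie mice. CPM use library totals, so these milk-protein counts lower the CPM of every other gene in that library. Squamous epithelium markers summed to 0.998 to 2389 CPM in the Winnie-Prolapse mice, against at most 37.2 CPM in Winnie and 2.86 CPM in C57BL/6 mice. C57BL/6 replicate 7 had the highest summed smooth muscle markers (12048 CPM) and distal colon markers (13995 CPM) of its group and the lowest summed macrophage (159.7 CPM), neutrophil (4.17 CPM) and B cell markers (2.5 CPM). In the C57BL/6 mice most of the neutrophil sum came from a single gene, Ly6g. Without Winnie replicate 5, the genes called in Winnie against C57BL/6 mice over the whole table went from 15 higher and 1 lower to 436 higher and 241 lower. Values without these libraries stand beside the component fold changes whose call or size they change most, and the part of the other tissues in the results was not tested.

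Of the 9 genes, 8 passed the low-count filter in each comparison and Cfi did not. The calling rule was an adjusted p under 0.001 and a change of at least 1.5-fold by edgeR's quasi-likelihood test, and an adjusted p under 0.05 with the same fold was the second rule. In Winnie-Prolapse mice against C57BL/6 mice, 6 of the 8 genes tested were called higher (C1qa, C1qb, C1qc, C1ra, C2 and C4b), against 9.84% of all genes, and all 8 passed the second rule, against 16.7% of all genes. In Winnie mice against C57BL/6 mice none of the 8 was called, against 0.0868% of all genes called higher, while 6 passed the second rule (the C1q chains, C1ra, C4b and Cfb), against 7.42% of all genes. With single libraries left out this count was 4 to 6, since Cfb lost the second rule in 9 such fits and C1qc in 2 (without Winnie replicate 1 or 2). In Winnie-Prolapse mice against Winnie mice none was called, where 0% of all genes were, and C2 and C3 passed the second rule, against 4.27% of all genes. The counts of 0 stand beside 6901 and 4743 genes of the 2 comparisons at an unadjusted p under 0.05, and DESeq2 called 2 of the 8 in Winnie mice (C1ra and C4b), where it called 758 of 22121 genes higher, and none between the Winnie groups, where it called 482 of 22256 higher. The median log2 fold change of the 8 genes was 0.73 in Winnie and 1.27 in Winnie-Prolapse mice against C57BL/6 mice, where that of all genes was -0.01 in both. The 2 comparisons share their C57BL/6 mice. In these whole-tissue samples, more cells of a type and more RNA per cell cannot be told apart. The make-up of the tissue moved with the groups. The 6 smooth muscle markers summed to a mean of 8450 CPM in C57BL/6, 4419 CPM in Winnie and 2223 CPM in Winnie-Prolapse mice, and all 6 were called lower in Winnie-Prolapse mice and were lower at the second rule in Winnie mice. The 8 distal colon markers summed to a mean of 9291, 5905 and 3316 CPM, with 2 called lower in Winnie-Prolapse mice. The part of these shifts in the complement results was not tested.

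**Figure D1:**
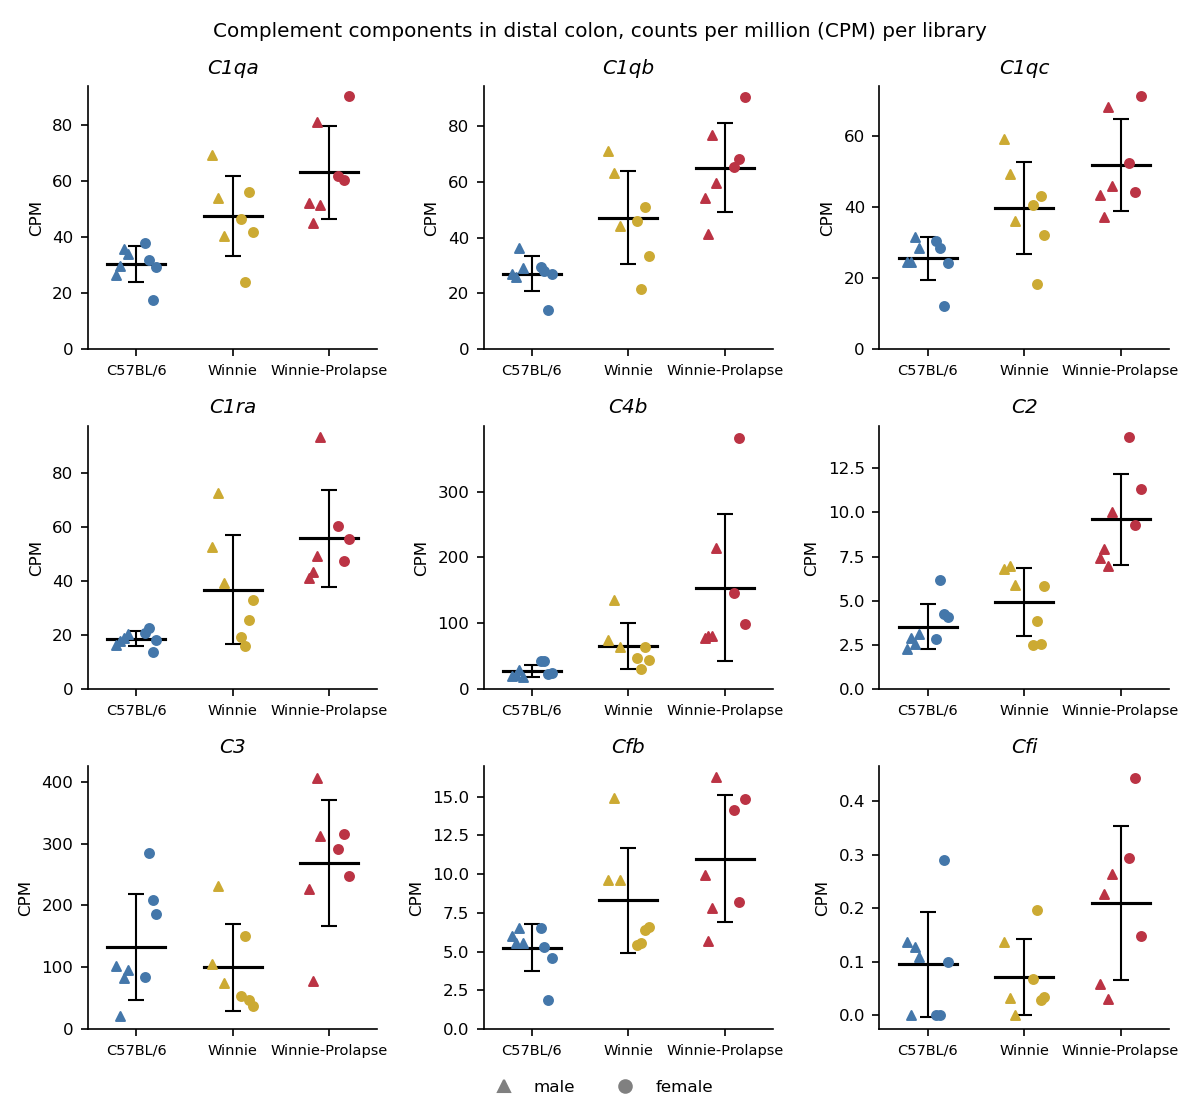
Level of each complement gene in CPM (linear axis) in the 22 libraries by group. Triangles are males, circles are females, and the black lines give the group mean and SD. The Winnie-Prolapse libraries of C1qa, C1qb, C1qc, C1ra, C4b and C2 all lie above the C57BL/6 libraries, whereas C3 spreads from 21.4 to 285 CPM within the C57BL/6 group and Cfi stays under 0.45 CPM.

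C1qa encodes the A chain of C1q. Its level ran from 17.6 to 38.1 CPM in C57BL/6 mice (median 30.8), from 24.1 to 69.3 CPM in Winnie mice (median 46.6) and from 45.2 to 90.2 CPM in Winnie-Prolapse mice (median 60.3). In 6 of the 7 Winnie mice the level was above every C57BL/6 mouse, and Winnie replicate 5 was the exception. The mean rose from 30.3 ± 6.34 CPM (SD, n = 8) to 47.4 ± 14.3 (n = 7) and 63.2 ± 16.5 (n = 7). The log2 fold change was 0.74 ± 0.20 (SE, adjusted p = 0.0151) in Winnie and 1.17 ± 0.19 (adjusted p = 1.22e-04) in Winnie-Prolapse mice.

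C1qb, the B chain, ran from 14.0 to 36.4 CPM in C57BL/6 mice (median 27.6), from 21.8 to 71.0 CPM in Winnie mice (median 45.8) and from 41.4 to 90.5 CPM in Winnie-Prolapse mice (median 65.1). Again the Winnie-Prolapse and C57BL/6 mice did not overlap, whereas Winnie mice lay across both. Its log2 fold change was 0.88 ± 0.22 (adjusted p = 0.0120) in Winnie and 1.37 ± 0.20 (adjusted p = 5.05e-05) in Winnie-Prolapse mice.

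C1qc, the C chain, ran from 12.2 to 31.7 CPM in C57BL/6 mice (median 26.5), from 18.5 to 59.3 CPM in Winnie mice (median 40.6) and from 37.3 to 71.3 CPM in Winnie-Prolapse mice (median 46.0). The order of the groups was that of the other chains. Its log2 fold change was 0.73 ± 0.22 (adjusted p = 0.0256) in Winnie and 1.12 ± 0.20 (adjusted p = 2.51e-04) in Winnie-Prolapse mice. Between Winnie-Prolapse and Winnie mice the 3 chains differed by 0.40 to 0.49 on the log2 scale, with adjusted p-values of 0.218 to 0.294. Leaving out C57BL/6 replicate 7, the lowest library of all 3 chains, gave 0.65, 0.79 and 0.62 for C1qa, C1qb and C1qc in Winnie mice (adjusted p of 0.0127 to 0.0268) and 1.09, 1.28 and 1.03 for C1qa, C1qb and C1qc in Winnie-Prolapse mice, all still called (adjusted p of 3.82e-05 to 1.46e-04). C1qc alone lost its call without C57BL/6 replicate 2 or without Winnie-Prolapse replicate 7 (adjusted p = 0.00111 in both).

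The levels of the 3 chains followed each other closely. Per kilobase of exon, C1qb stood at 0.742 to 1.12 times C1qa over the 22 libraries (mean 0.924 ± 0.11) and C1qc at 0.374 to 0.498 times (mean 0.449 ± 0.0324). C1qb stood at 0.854 ± 0.0872 times C1qa in C57BL/6 (SD, n = 8), 0.941 ± 0.12 times in Winnie (n = 7) and 0.989 ± 0.0851 times in Winnie-Prolapse mice (n = 7), with overlapping ranges. C1qc stood at 0.451 ± 0.0379 times C1qa in C57BL/6, 0.450 ± 0.0349 times in Winnie and 0.444 ± 0.027 times in Winnie-Prolapse mice. By contrast C3 stood at 0.147 to 2.4 times C1qa and C4b at 0.103 to 1.16 times. After the group means were taken off, Pearson's r of log2 CPM over the 22 libraries was 0.94 for C1qa with C1qb, 0.97 for C1qa with C1qc, 0.33 for C1qa with C4b and -0.02 for C1qa with C3. Without C57BL/6 replicate 7 and Winnie-Prolapse replicate 6 these 4 values were 0.93, 0.98, 0.41 and 0.11. They are descriptions, and genes of a library share its tissue piece and depth.

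**Figure D2:**
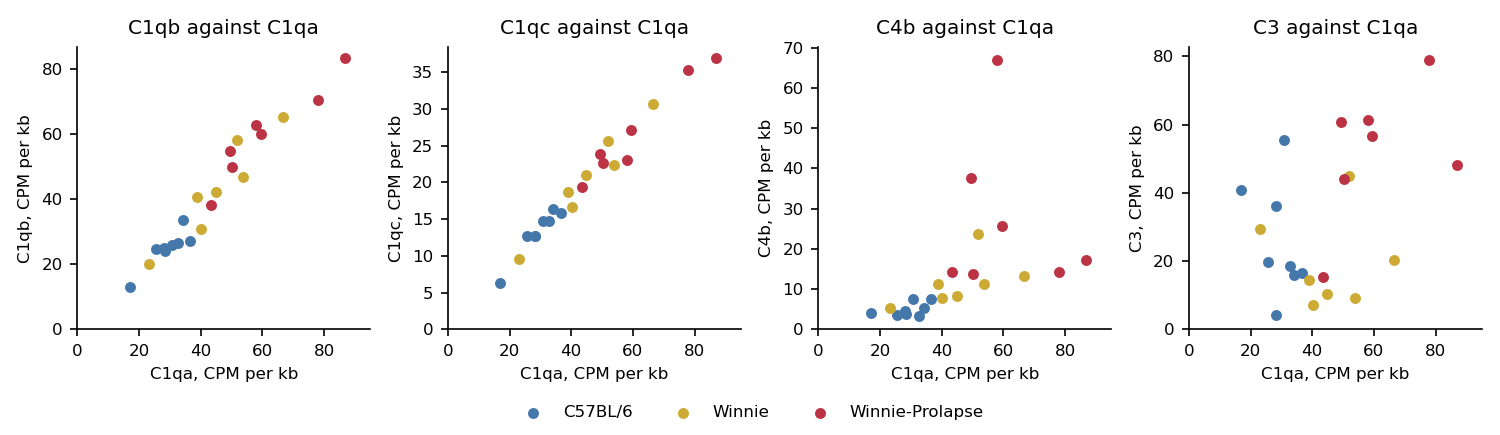
Level of C1qb, C1qc, C4b and C3 against that of C1qa, in CPM per kilobase of exon (linear axes), 1 point a library, coloured by group. C1qb and C1qc lie along a line through all 3 groups, while C4b (0.103 to 1.16 times C1qa) and C3 (0.147 to 2.4 times) scatter.

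Outside the 9 components, the genes most like the C1q chains in this measure, out of 13597 genes compared, were AF251705 for C1qa (r = 0.85) and C1qc (r = 0.85) and Fcgr2b for C1qb (r = 0.86), with Ctsb, Aif1, Adgre1 and Lair1 filling the other places among the nearest 3. Spearman's rank correlation with these genes was lower, at 0.59 to 0.67 for C1qb and 0.69 to 0.81 for C1qa and C1qc. Fcgr2b is an inhibitory receptor for IgG, Aif1 and Adgre1 (F4/80) are macrophage proteins, Lair1 is an inhibitory collagen receptor of leukocytes and Ctsb is a lysosomal protease. The 9 macrophage markers summed to 159.7 to 307 CPM in C57BL/6, 223 to 376 CPM in Winnie and 274 to 710 CPM in Winnie-Prolapse mice. None of them was at 0 in any group. Of the 9, 5 were called higher in Winnie-Prolapse mice, among them Cd14, a co-receptor for lipopolysaccharide, at 2.46 ± 0.21, and 1, Mertk, a receptor for dying cells, was called lower, at -1.48 ± 0.18. Lyz2, the lysozyme of myeloid cells and the most abundant of the list, was at 1.32 ± 0.29 (adjusted p = 0.00157). Within groups the r of the summed markers was 0.67 with C1qa, 0.72 with C1qb and 0.67 with C1qc, and 0.60, 0.66 and 0.61 without C57BL/6 replicate 7 and Winnie-Prolapse replicate 6. The part of cell numbers in the C1q result was not tested.

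C1ra encodes the first protease of the classical pathway, which C1q switches on. Its level ran from 13.8 to 22.8 CPM in C57BL/6 mice (median 18.7), from 15.9 to 72.8 CPM in Winnie mice (median 33.1) and from 41.2 to 93.5 CPM in Winnie-Prolapse mice (median 49.3). The C57BL/6 mice lay close together, at 18.7 ± 2.82 CPM (SD, n = 8), whereas Winnie mice spread from the control range up to that of prolapse, at 36.9 ± 20.1 CPM (n = 7). The mean in Winnie-Prolapse mice was 55.8 ± 17.9 CPM (n = 7), and without replicate 4, the highest, the log2 fold change was 1.54 instead of 1.66 ± 0.15. That change, 3.15-fold, had the lowest adjusted p of the 8 genes (8.19e-07). In Winnie mice the log2 fold change was 1.05 ± 0.25 (adjusted p = 0.0100), and between the Winnie groups it was 0.61 ± 0.29 (adjusted p = 0.184).

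C1s1, the gene of the partner protease that C1r activates, was the gene most like C1ra within groups (r = 0.93), followed by Nsf, a membrane-fusion ATPase, and Tnfaip2. C1s1 (ENSMUSG00000038521) lies near C1ra, at chr6:124530345-124542359 on the minus strand, and 576 of its exonic bases lie antisense to Gm16567. It rose from 45.5 ± 6.77 CPM (SD, n = 8) in C57BL/6 mice to 65.4 ± 26.8 (n = 7) in Winnie and 115 ± 27.5 (n = 7) in Winnie-Prolapse mice. Its log2 fold change was 0.60 ± 0.19 (adjusted p = 0.0325) in Winnie and 1.41 ± 0.13 (adjusted p = 8.53e-07) in Winnie-Prolapse mice. The 8 fibroblast markers summed to 848 to 1140 CPM in C57BL/6, 535 to 1629 CPM in Winnie and 673 to 2227 CPM in Winnie-Prolapse mice, and none was called in either direction, with 3 lower at the second rule in Winnie mice and 5 higher in Winnie-Prolapse mice. The part of fibroblasts in the C1ra result was not tested. The r of this sum within groups was 0.59 with C1ra and -0.04 to 0.08 with the C1q chains. C1ra had an r of 0.56 with the summed macrophage markers, 0.49 with the endothelial and -0.67 with the distal colon markers.

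C4b encodes the C4 protein cleaved by C1s and by the lectin-pathway protease, and it had the largest fold change of the 8 genes against C57BL/6 mice in both Winnie groups. Its level ran from 19.2 to 42.5 CPM in C57BL/6 mice (median 23.9), from 30.7 to 135 CPM in Winnie mice (median 63.7) and from 78.3 to 382 CPM in Winnie-Prolapse mice (median 98.6). In 6 of the 7 Winnie mice and in all 7 Winnie-Prolapse mice it was above every C57BL/6 mouse. The log2 fold change was 1.31 ± 0.27 (adjusted p = 0.00545), or 2.48-fold, in Winnie and 2.62 ± 0.38 (adjusted p = 5.59e-05), or 6.13-fold, in Winnie-Prolapse mice. Without Winnie replicate 5, the lowest of its group, the change in Winnie mice was 1.43 (adjusted p = 9.18e-04), which passed the calling rule. The highest library, at 382 CPM, was Winnie-Prolapse replicate 6, the one with the milk-protein genes, and without it the log2 fold change was 2.11 (adjusted p = 1.93e-05). Between the Winnie groups the difference was 1.31 ± 0.43 (adjusted p = 0.066), and 0.78 (adjusted p = 0.147) without that library. The genes most like C4b within groups were Apobr, Slc41a1 and Cp (r = 0.81 to 0.82), of which Cp is ceruloplasmin, an acute-phase copper protein. C4a, the neighbouring copy of C4b, was at 0.983 CPM in C57BL/6 and 0.954 CPM in Winnie-Prolapse mice, with a log2 fold change of 0.03 ± 0.24.

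C2 encodes the protease that joins C4b to form the classical C3-cutting enzyme, and it was the lowest of the 8 genes. Its level ran from 2.26 to 6.17 CPM in C57BL/6 mice (median 3.03), from 2.5 to 6.95 CPM in Winnie mice (median 5.86) and from 6.96 to 14.3 CPM in Winnie-Prolapse mice (median 9.31). The Winnie-Prolapse mice lay above both other groups, though the lowest of them, at 6.96 CPM, barely passed the highest Winnie mouse, at 6.95 CPM. The log2 fold change was 1.53 ± 0.22 (adjusted p = 5.59e-05) against C57BL/6 mice and 0.99 ± 0.25 (adjusted p = 0.0283) against Winnie mice, whereas Winnie and C57BL/6 mice differed by 0.55 ± 0.26 (adjusted p = 0.130). With single libraries left out the adjusted p against Winnie mice ran from 0.0172 to 0.0621, above 0.05 without Winnie replicate 4, 5 or 6 or Winnie-Prolapse replicate 4, 5 or 6. The groups were fully apart in 6 of the 8 genes for Winnie-Prolapse against C57BL/6 mice, where 6.5% of all genes were, in C2 alone for Winnie-Prolapse against Winnie mice, where 0.411% were, and in none for Winnie against C57BL/6 mice, where 0.463% were. Genes like C2 within groups included Tlr2, a receptor for bacterial lipoproteins (r = 0.78), and Rgma (r = 0.77).

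C3 encodes the central component at which all pathways meet, and of the 8 genes tested it had the widest spread for its mean in C57BL/6 and Winnie mice. Its level ran from 21.4 to 285 CPM in C57BL/6 mice (median 98.6), from 37.3 to 231 CPM in Winnie mice (median 74.9) and from 78.1 to 407 CPM in Winnie-Prolapse mice (median 291). All 3 groups overlapped, and 4 of the 7 Winnie-Prolapse mice were above every C57BL/6 mouse. The mean was 133 ± 85.9 CPM (SD, n = 8) in C57BL/6, 100 ± 69.9 (n = 7) in Winnie and 268 ± 102 (n = 7) in Winnie-Prolapse mice. C3 alone of the 8 genes had a log2 fold change below 0 in Winnie against C57BL/6 mice, at -0.37 ± 0.46 (adjusted p = 0.575). It was 1.12 ± 0.44 (adjusted p = 0.0435) in Winnie-Prolapse against C57BL/6 mice and 1.5 ± 0.42 (adjusted p = 0.0392) against Winnie mice. Without Winnie-Prolapse replicate 6 these adjusted p-values were 0.0719 and 0.0773. With other single libraries left out they ran from 0.0145 to 0.0785 and from 0.0102 to 0.0812, and the first passed only without C57BL/6 replicate 6, 7 or 8 or Winnie-Prolapse replicate 2. The genes most like C3 within groups reached r = 0.76 at most (D630036G22Rik, then Kcnj10 and Npr1), and its r with the other 7 components reached 0.48, with C2.

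Cfb encodes factor B, the protease part of the alternative C3-cutting enzyme. Its level ran from 1.85 to 6.54 CPM in C57BL/6 mice (median 5.53), from 5.40 to 14.9 CPM in Winnie mice (median 6.56) and from 5.66 to 16.3 CPM in Winnie-Prolapse mice (median 9.97). In 6 of the 7 Winnie-Prolapse mice and 4 of the 7 Winnie mice it was above every C57BL/6 mouse. The log2 fold change was 0.73 ± 0.25 (adjusted p = 0.0424) in Winnie and 1.15 ± 0.26 (adjusted p = 0.0016) in Winnie-Prolapse mice, just short of the calling rule. For Winnie-Prolapse mice Cfb passed that rule in 2 of the fits with 1 library left out and in 2 of the other alternatives. The call of Cfb in Winnie mice at the second rule was lost in 9 of the fits with 1 library left out, with adjusted p up to 0.102 (without Winnie replicate 2). Leaving out C57BL/6 replicate 7, whose Cfb level of 1.85 CPM was the lowest of all libraries, gave 1.03 with an adjusted p of 8.44e-04, and 7 of the 8 genes were then called, where 1861 of all 17295 genes were called higher. Within groups Cfb was most like Cd68, a lysosomal macrophage protein (r = 0.89), Slfn2 and P2ry13, and its r with the summed macrophage markers was 0.78.

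Cfi encodes factor I, the protease that inactivates C3b and C4b. It had 0 to 11 counts in a library, with a mean of 0.0952 CPM in C57BL/6, 0.0709 CPM in Winnie and 0.209 CPM in Winnie-Prolapse mice. It did not pass the low-count filter and was not tested. The means of C57BL/6 and Winnie mice lie at or under the level of 3 counts, and a difference between those groups was not detectable at this depth.

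**Figure D3:**
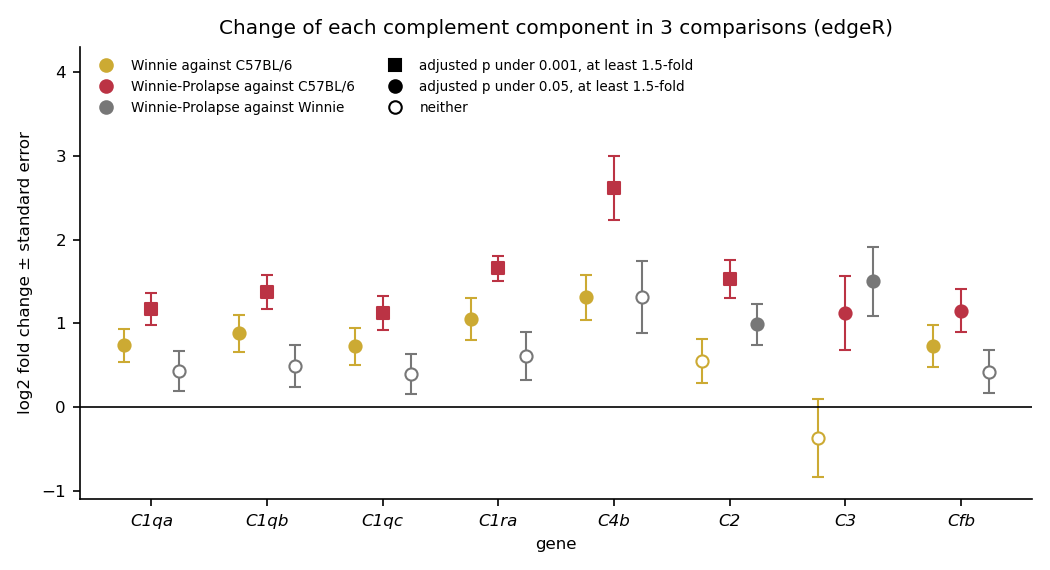
Log2 fold change with its standard error (edgeR) of the 8 complement genes tested, in the 3 comparisons. Squares passed an adjusted p under 0.001 and filled circles an adjusted p under 0.05, both with at least 1.5-fold. C4b lies highest, at 2.62 for Winnie-Prolapse against C57BL/6, and C3 alone lies below 0 for Winnie against C57BL/6, at -0.37.

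Levels were compared between genes as CPM per kilobase of exonic bases not shared with another gene on the same strand. In C57BL/6 mice C1qa was at 29.2 ± 6.1 (SD, n = 8), C3 at 25.9 ± 16.7, C1qb at 24.9 ± 5.71, C1qc at 13.3 ± 3.16, Cfb at 9.05 ± 2.61, C1ra at 6.26 ± 0.945, C4b at 4.88 ± 1.69 and C2 at 1.59 ± 0.577. Of the neighbours in this order, C1qb and C1qc, and C4b and C2, were apart by more than their SDs together, and the other pairs were not. In Winnie mice C1qa was at 45.6 ± 13.7 (SD, n = 7), C1qb at 43.4 ± 15.4, C1qc at 20.7 ± 6.72, C3 at 19.4 ± 13.6, Cfb at 14.3 ± 5.9, C1ra at 12.4 ± 6.76, C4b at 11.5 ± 6.01 and C2 at 2.22 ± 0.869. There too C1qb and C1qc, and C4b and C2, were apart and the other neighbours were not. In Winnie-Prolapse mice C1qa was at 60.7 ± 15.9 (SD, n = 7), C1qb at 59.8 ± 14.5, C3 at 52.2 ± 19.8, C4b at 27.1 ± 19.6, C1qc at 26.9 ± 6.73, Cfb at 19 ± 7.05, C1ra at 18.7 ± 6.0 and C2 at 4.33 ± 1.16, and among these 8 C1ra and C2 were the only neighbours apart by more than their SDs together. Cfi was last, at 0.0429, 0.0319 and 0.0943 in the 3 groups. The mean of C4b was below that of C1ra in C57BL/6 mice and near that of C1qc in Winnie-Prolapse mice, within a wide spread. The places of Cfb and C2 in this order depend on how reads shared with Gm20547 were counted. Per kilobase of all exonic bases, Cfb was at 1.85 ± 0.535 in C57BL/6 and 3.89 ± 1.44 in Winnie-Prolapse mice, below C4b in both, and C2 was at 0.911 ± 0.33 and 2.48 ± 0.663.

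Male and female mice were in every group, and none of the 8 genes was called by sex over all libraries at an adjusted p under 0.05 (0.0768% of all genes were, and 818 had an unadjusted p under 0.05 in edgeR, while DESeq2 also called none of the 8). Within the Winnie group the males lay above the females with no overlap for 4 of the 8 genes, where 14.6% of all genes did so. C1ra was at 39.2 to 72.8 CPM in the 3 males and 15.9 to 33.1 CPM in the 4 females. C2 was at 5.90 to 6.95 CPM in males and 2.5 to 5.86 CPM in females. Cfb was at 9.60 to 14.9 CPM in males and 5.40 to 6.56 CPM in females. C4b was at 64.0 to 135 CPM in males and 30.7 to 63.7 CPM in females, next to each other at the border. In C57BL/6 mice C3 was at 21.4 to 101 CPM in males and 84.4 to 285 CPM in females, and the reverse order held in Winnie mice, with means of 137 CPM in 3 males and 72.3 CPM in 4 females.

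Among males alone, 7 of the 8 genes passed the second rule in Winnie against C57BL/6 mice, against 11.8% of all genes, and among females alone none did, against 0.00579% of all genes, with 3315 genes at an unadjusted p under 0.05. In Winnie-Prolapse against Winnie mice the counts were 0 among males, where 0% of all genes passed and 918 had an unadjusted p under 0.05, and 5 among females (C1ra, C4b, C2, C3 and Cfb), against 8.09% of all genes. Against C57BL/6 mice, 7 of the 8 passed in Winnie-Prolapse males and 7 in Winnie-Prolapse females, against 13% and 13.7% of all genes. The log2 fold change of C4b in Winnie mice was 2.04 among males and 0.61 among females, and that of C2 was 1.30 and -0.13. The test of the difference itself, the sex by group interaction in edgeR, called none of the 8 genes at an adjusted p under 0.05 in any comparison, where 0.247%, 0% and 0% of all genes were called for Winnie and Winnie-Prolapse against C57BL/6 and for Winnie-Prolapse against Winnie. For Winnie against C57BL/6 the interaction was 1.43 ± 0.43 for C4b (unadjusted p = 0.00533, adjusted p = 0.124), 1.43 ± 0.41 for C2 (0.00382 and 0.112), 1.16 ± 0.36 for C1ra (0.00569 and 0.126) and 2.20 ± 0.78 for C3 (0.0133 and 0.170). The C1q chains had interactions of 0.17 to 0.28 there, with adjusted p-values of 0.765 to 0.866. For Winnie-Prolapse against Winnie the interactions of the 8 genes were all below 0, from -0.66 for C1qa to -1.96 ± 0.72 for C4b (unadjusted p = 0.0170, adjusted p = 0.354). The lowest unadjusted p was that of C2, at -1.38 ± 0.37 (0.00265 and 0.300), and the adjusted p-values of the 8 ran from 0.300 to 0.547. With 3 or 4 mice a sex in each group, no difference between the sexes passed the test for any of the 8.

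**Figure D4:**
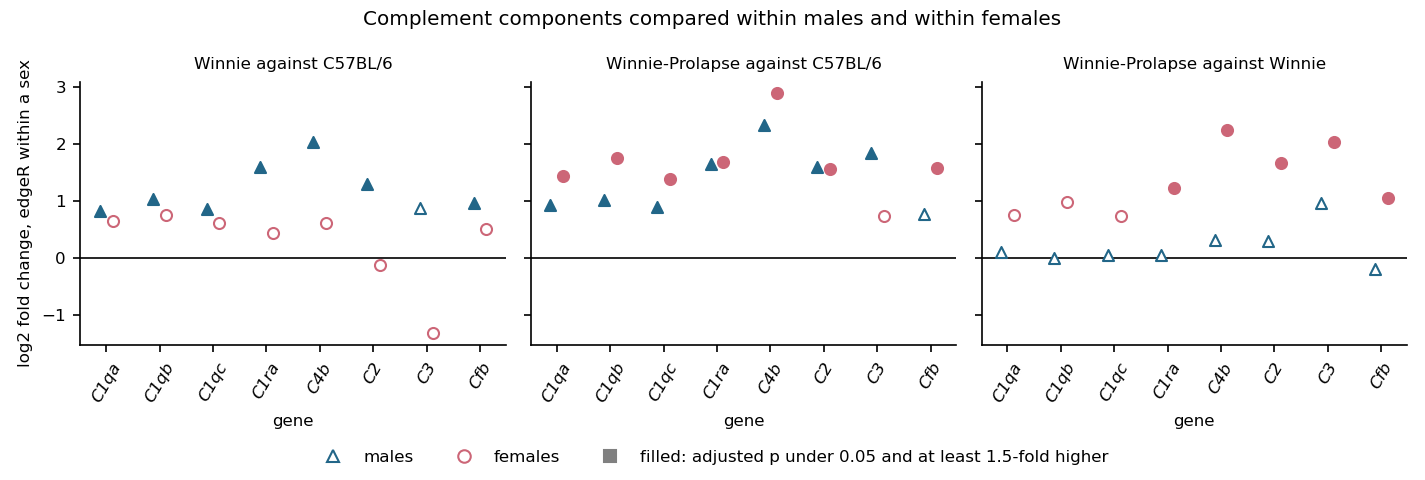
Log2 fold change of the 8 complement genes in edgeR fits within males (triangles) and within females (circles), in the 3 comparisons. Filled symbols are at an adjusted p under 0.05 and at least 1.5-fold higher. In Winnie against C57BL/6 mice 7 symbols are filled for males and none for females, and in Winnie-Prolapse against Winnie mice 5 are filled for females and none for males.

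A list of 50 other complement genes was read by role, and 34, 36 and 35 of them were tested in the 3 comparisons. In Winnie-Prolapse against C57BL/6 mice 11 of 36 were called higher, against 9.84% of all genes, and none lower, with 4 lower at the second rule, against 17.7% of all genes, and in Winnie mice none of 34 was called, with 6 higher and 4 lower at the second rule, where 7.42% of all genes were higher and 8.53% lower. Their median log2 fold change was 0.11 in Winnie and 0.27 in Winnie-Prolapse mice. Between the Winnie groups none of 35 was called and 5 were higher and 1 lower at the second rule, where 4.27% of all genes were higher and 2.72% lower. Receptors held most of the calls, with 6 of the 9 tested called higher in Winnie-Prolapse mice. Itgb2 and Itgam, the chains of complement receptor 3, were at 2.60 ± 0.37 (adjusted p = 3.89e-05) and 3.11 ± 0.34 (adjusted p = 4.71e-06), and Cd93 at 1.13 ± 0.20 (adjusted p = 3.12e-04). Itgam shares 68.7% of its exonic bases with the gene model Gm49368, with the same limit as Cfb. C1qbp, a mitochondrial protein that binds C1q, was not called at 0.44 ± 0.13 (adjusted p = 0.0111). The anaphylatoxin receptors, named here after their values were seen, were C3ar1 at 1.55 ± 0.19, C5ar1 at 2.32 ± 0.39 and C5ar2 at 1.54 ± 0.26, all called. Neutrophils also carry several of these receptors, and 4 of the 5 neutrophil markers tested were called higher in Winnie-Prolapse mice, against 9.84% of all genes. S100a8 was at 0.204 CPM in C57BL/6, 7.84 CPM in Winnie and 119 CPM in Winnie-Prolapse mice. The summed neutrophil list, in which Ly6g was the most abundant gene (mean 382 CPM over all libraries), rose less. Its medians were 287 CPM in C57BL/6, 423 CPM in Winnie and 690 CPM in Winnie-Prolapse mice. The part of neutrophils in the receptor result was not tested.

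Among the soluble regulators, which hold the cascade in check, 2 of 7 were called higher in Winnie-Prolapse mice. Serping1, the inhibitor of C1r and C1s, was at 0.84 ± 0.16 (adjusted p = 4.99e-04), Clu at 0.82 ± 0.51 (adjusted p = 0.19) and C4bp, a cofactor of factor I, at -0.37 ± 0.32 (adjusted p = 0.34). None of the 8 membrane regulators was called, and Cd55, which speeds the decay of C3-cutting enzymes, stood at 0.76 ± 0.16 (adjusted p = 0.00113). Cr1l, another such regulator, was at 0.36 ± 0.09 (adjusted p = 0.0042), and Cd59a, which blocks the membrane attack pore, was at -1.09 ± 0.29 (adjusted p = 0.00573).

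Of the alternative pathway, Cfp (properdin, which steadies the C3-cutting enzyme) was called higher at 0.89 ± 0.16 (adjusted p = 2.68e-04), whereas Cfd (factor D, which cleaves factor B) was at -1.72 ± 0.78 (adjusted p = 0.0735). Of the terminal pathway, whose proteins form the pore, 3 of 7 were tested and C6 alone was called, from 0.125 CPM in C57BL/6 to 1.70 CPM in Winnie-Prolapse mice. C6 alone of the 3 had a log2 fold change above 0, and their median was -0.54. Per kilobase of exon, C7 had means of 1.08 CPM in C57BL/6 and 0.374 CPM in Winnie-Prolapse mice (medians 0.264 and 0.244). C8g had means of 0.649 and 0.413 CPM per kilobase. Hc, the gene of C5, stood at 0.203 and 0.348 CPM and was not tested. The lectin recognition genes Mbl1 and Mbl2 were at or near 0, and Colec12 and Fcna had log2 fold changes of -0.30 and -0.45, neither called. Colec10 was not called either, and its median was 2.56 CPM in C57BL/6 mice, with 1 library at 40.5 CPM, and 0.662 CPM in Winnie-Prolapse mice. It was the 1 of the 3 lectin recognition genes tested that was lower at the second rule, against 17.7% of all genes. In Winnie mice 2 of the 3 tested were lower at that rule, against 8.53% of all genes.

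**Figure D5:**
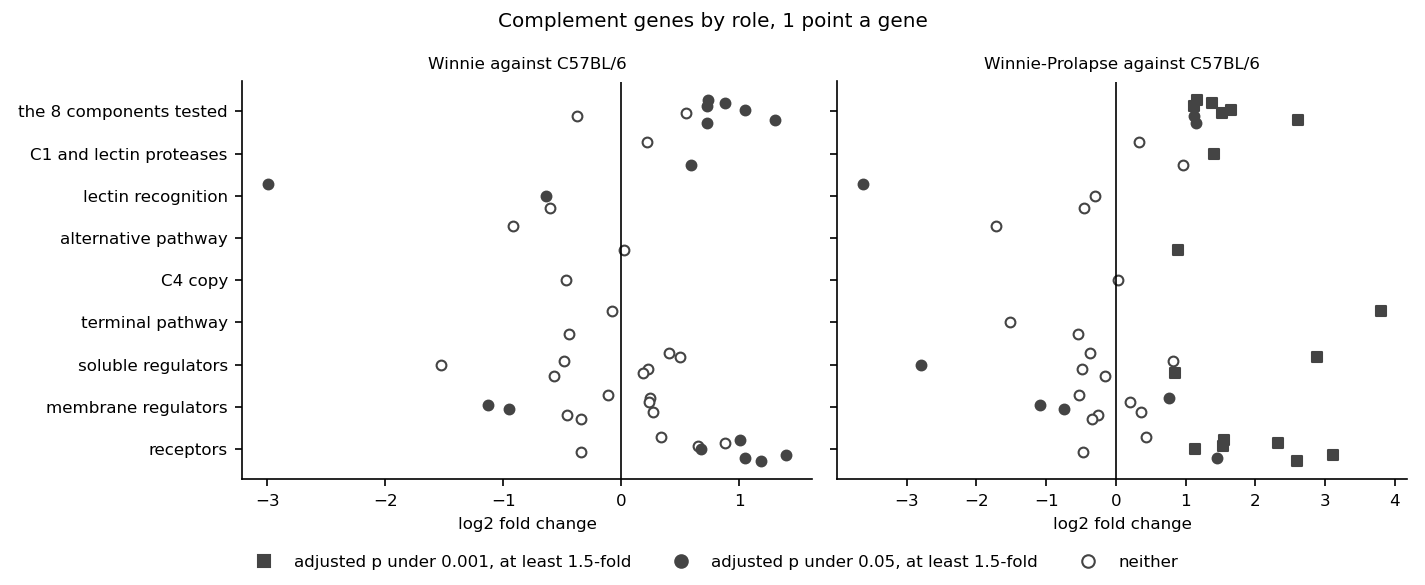
Log2 fold change of each complement gene tested, 1 point a gene, by role, in Winnie (left) and Winnie-Prolapse (right) against C57BL/6 mice. Squares passed an adjusted p under 0.001 and filled circles an adjusted p under 0.05, both with at least 1.5-fold. In Winnie-Prolapse mice 6 of the 8 components and 6 of the 9 receptors are squares, and none of the 8 membrane regulators is.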

How the data were processed

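Distal colon RNA of 22 mice was measured as poly(A) RNA in stranded libraries. The authors ran the RNAsik pipeline, and the submitters' processing notes name STAR, featureCounts and GRCm38. The deposited table holds raw read counts per gene, as whole numbers with no normalization. The annotation release, the strand setting and the handling of shared reads are not given in the sources used here. The labels pair no mice and have no batch field. The title of 1 Winnie-Prolapse library reads as a date, with no stated meaning. The study's methods give fewer Winnie colon samples than are labelled here, and all labelled libraries were used. Each labelled library was taken as 1 mouse, p-values measure the spread between these libraries, and no 2 libraries of a group agreed within sampling noise.

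Tests on these counts used the quasi-likelihood F test of edgeR (version 4.0.16, R version 4.3.3) with TMM and filterByExpr, each comparison on its own groups, with Benjamini-Hochberg adjustment over all genes tested. The limits, an adjusted p under 0.001 and 1.5-fold, were those of the study. CPM used library totals. Likeness was Pearson's r of log2 CPM (prior count 2) after group means were removed, among genes with a mean log2 CPM of at least 1. All 9 components were named, and up to 4 other complement genes a role and 3 genes a marker list, by highest mean CPM. DESeq2 1.42.0 and limma-voom (limma 3.58.1), other filters, sex as a covariate, each sex alone and each library left out were tried as alternatives. The tests were checked on simulated counts. Members and lists were chosen with earlier results of these data known. Gene locations came from GENCODE M21. Some genes that the naming rule would give are not reported here. The r values without 2 libraries and the levels over all exonic bases were chosen after seeing the data.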

Additional observations from a re-analysis of the deposited data

Results flagged for a closer look

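In each of the 9 genes and 3 groups, the highest and the lowest library were compared with their nearest neighbour (Dixon's test at the 95% level, 27 groups of libraries), and chance alone gives about 1 in 20. C57BL/6 replicate 7 stood apart in 4 genes, low in C1qb (14.0 CPM), C1qc (12.2 CPM) and Cfb (1.85 CPM) and high in Cfi (0.29 CPM). In the same library the summed macrophage markers were the lowest of the C57BL/6 group, at 159.7 CPM, and Ly6g was at 3.8 CPM, against a group median of 286 CPM. Winnie-Prolapse replicate 4 stood apart in C1ra (93.5 CPM), and Winnie replicate 2 in C4b (135 CPM). What sets these libraries apart was not tested.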

How the results depend on the processing

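Over all alternatives, 593 of the fold changes of single genes kept their direction and their side of the limits, 12 fell short of a call, 7 gained one and 4 turned. The 4 that turned came from fits on 1 sex: C2 (-0.13, females) and C3 (0.88, males) in Winnie against C57BL/6 mice, and C1qb (-0.0047, males) and Cfb (-0.19, males) in Winnie-Prolapse against Winnie mice. The number of genes called in Winnie against C57BL/6 mice, 0, was 6 at an adjusted p under 0.05 and 2 with DESeq2, and 0 to 1 with a library left out (1, C4b, without Winnie replicate 5). In Winnie-Prolapse against C57BL/6 mice, 6 became 1 in males alone and 1 in females alone, while the higher calls over the whole table went from 1712 to 248 and 224, and 5 to 7 with a library left out. In Winnie-Prolapse against Winnie mice, 0 became 2 at an adjusted p under 0.05 and stayed 0 with each library left out. The count called by sex was 0 with each library left out. Counts at the second rule, an alternative chosen after seeing the data, ranged over libraries left out from 4 to 6 in Winnie and 7 to 8 in Winnie-Prolapse against C57BL/6 mice. Between the Winnie groups they ranged from 0 to 4. Without Winnie replicate 4, 5 or 6, or Winnie-Prolapse replicate 4, 5 or 6, neither C2 nor C3 passed there, and with sex as a covariate 1 did. In those fits without 1 library the genes of the whole table higher at that rule also fell, from 727 to between 272 and 397. With single libraries left out, the log2 fold change between the Winnie groups ran from 0.88 to 1.09 for C2 and from 1.34 to 1.83 for C3. The causes were not tested. No paired analysis was possible because the labels tie no mouse of a group to a mouse of another. The replicate numbers used here follow the order of the samples and pair no mice. Over the whole table, the 15 higher and 1 lower calls of Winnie against C57BL/6 mice were 758 and 445 with DESeq2, 174 and 25 with all 3 groups in 1 fit and 0 and 0 with limma-voom, those of Winnie-Prolapse against C57BL/6 mice, 1712 and 1474, were 2727 and 2277 with DESeq2, and those between the Winnie groups, 0 and 0, were 482 and 162 with DESeq2. Depth limits Cfi, which did not pass the low-count filter.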
